A study of Mus musculus with 7 samples.

Results

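A set of 10 genes of the NRF2 system and of carbonyl reduction was examined across 7 mouse kidney libraries. They are the transcription factor gene Nfe2l2 and its inhibitor gene Keap1, the enzyme and transporter genes Nqo1, Srxn1, Txnrd1, Gclc, Gclm and Slc7a11, and the carbonyl reductase genes Cbr1 and Cbr3. The 10 were taken by symbol from the 42256 gene identifiers of the deposited count table, and all 10 passed the low-count filter with 17964 genes tested. Cbr1 and Cbr3 were chosen by their lower counts under the knockout label in these same libraries, so their values are a description without a test. The other 8 were named for their roles, with earlier results of these data known.

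Each library came from the kidney of an adult male mouse from a cross background of 129S1/Sv x C57BL/6. All 7 mice had undergone uninephrectomy and were infused with angiotensin II at 800 ng/kg/min by implanted pump, and kidneys were taken 4 weeks after surgery. The label CDH11+/+ (wild type) was given to 3 mice and CDH11-/- (knockout) to 4, after cadherin-11, an adhesion protein of fibroblasts and related cells. How the gene was disrupted is not stated in the labels, and no library here came from an uninjured mouse. The question was which transcripts differed between the genotypes in injured kidneys.

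NRF2, the protein of Nfe2l2, is held in the cytosol by KEAP1, which hands it to a CUL3 ubiquitin ligase for degradation. Electrophiles and oxidants modify cysteines of KEAP1, after which NRF2 accumulates, pairs with small MAF proteins and binds antioxidant response elements (AREs) in the control regions of its targets. These targets make and recycle glutathione, reduce thioredoxin, supply NADPH, and detoxify quinones and other electrophiles. NRF2 is controlled largely through the stability of its protein, which transcript counts do not measure.

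Cdh11 transcripts went against the genotype labels. The gene stood at 6.79, 4.52 and 10.8 CPM (counts scaled to a common library size) under the wild-type label and at 9.56 to 11.6 CPM in the 4 libraries under the knockout label (log2 fold change 0.56, SE 0.25, edgeR adjusted p = 0.14). Directions below are therefore those of libraries labelled knockout against libraries labelled wild type. Total counts ranged from 72087906 to 84786351 per library, and kidney segment markers were present in all of them. Summed CPM of 10 proximal tubule markers was 9474 to 10865 under the wild-type label and 14427 to 16329 under the knockout label, with 6 of 10 genes higher and 1 lower. The summed markers of 6 other compartments were lower under the knockout label, without overlap of the groups. For the thick ascending limb (1 of 5 lower, 1 higher) the sums were 3208 to 4270 against 2556 to 3151 CPM, and for the distal convoluted tubule (1 of 3 lower) 2197 to 2917 against 1227 to 1624 CPM. Nearly all of the distal convoluted tubule sums came from Slc12a3, with means of 2424 against 1415 CPM. Trpm6 (44.6 against 32.8 CPM) and Pvalb, which was higher (4.65 against 7.54 CPM), were not called. For principal cells (4 of 5 lower) the sums were 396 to 588 against 328 to 359 CPM, and for intercalated cells (3 of 5 lower) 183 to 308 against 132 to 176 CPM. For podocytes (4 of 5 lower) they were 403 to 498 against 249 to 367 CPM, and for endothelium (2 of 5 lower) 292 to 362 against 208 to 255 CPM. Macrophage sums (1 of 6 higher, 0 lower) overlapped, at 31.4 to 81.0 against 59.3 to 80.5 CPM. The 1 higher was Csf1r, with means of 23.7 against 42.8 CPM, a large part of these sums. T cell sums (0 of 4 lower or higher) also overlapped, at 1.18 to 3.99 against 2.05 to 2.41 CPM. Adipocyte markers stood at 0.0501 CPM or less. Over all genes tested, 12.9% were lower and 16.8% higher by the test used below. Mitochondrial ribosomal RNA took 13.5 to 18.2% of the wild-type-labelled counts and 10.7 to 13.5% of the others. The part of these differences in the results below was not tested. In whole tissue, fewer cells of a type and less RNA per cell cannot be told apart.

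Wild-type-labelled replicate 3 stood apart from the other libraries of its group. Its summed CPM of 4 Y-linked genes, chosen after their values were seen, was 64.7 against 111 to 145 in the other 6 libraries. Xist, of the X chromosome, had few counts, at 0.198, 0.936 and 0.924 CPM under the wild-type label and 0.126 to 0.288 CPM under the knockout label. By this gene replicate 3 did not stand apart from replicate 2. Replicate 3 held the lowest value of its group for 7 of the 10 genes. The change of each of the 10 genes is therefore also given without it.

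Of the 8 genes not chosen for being lower, 4 fell and 2 rose, and Keap1 and Gclc did not pass the test. Over all 17964 genes tested, 29.7% were called at an adjusted p under 0.05 (edgeR's quasi-likelihood test), 12.9% lower and 16.8% higher. The falls were those of Nqo1, Srxn1, Nfe2l2 and Txnrd1, and the rises those of Gclm and Slc7a11. The median log2 fold change of the 8 was -0.19, beside -0.01 over all genes. In 6 of the 8 there was no overlap of the groups, beside 38.5% of all genes, with 4 lower (16.6% of all genes) and 2 higher (21.9%). Without wild-type-labelled replicate 3, 4 fell and 1 rose.

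**Figure D1:**
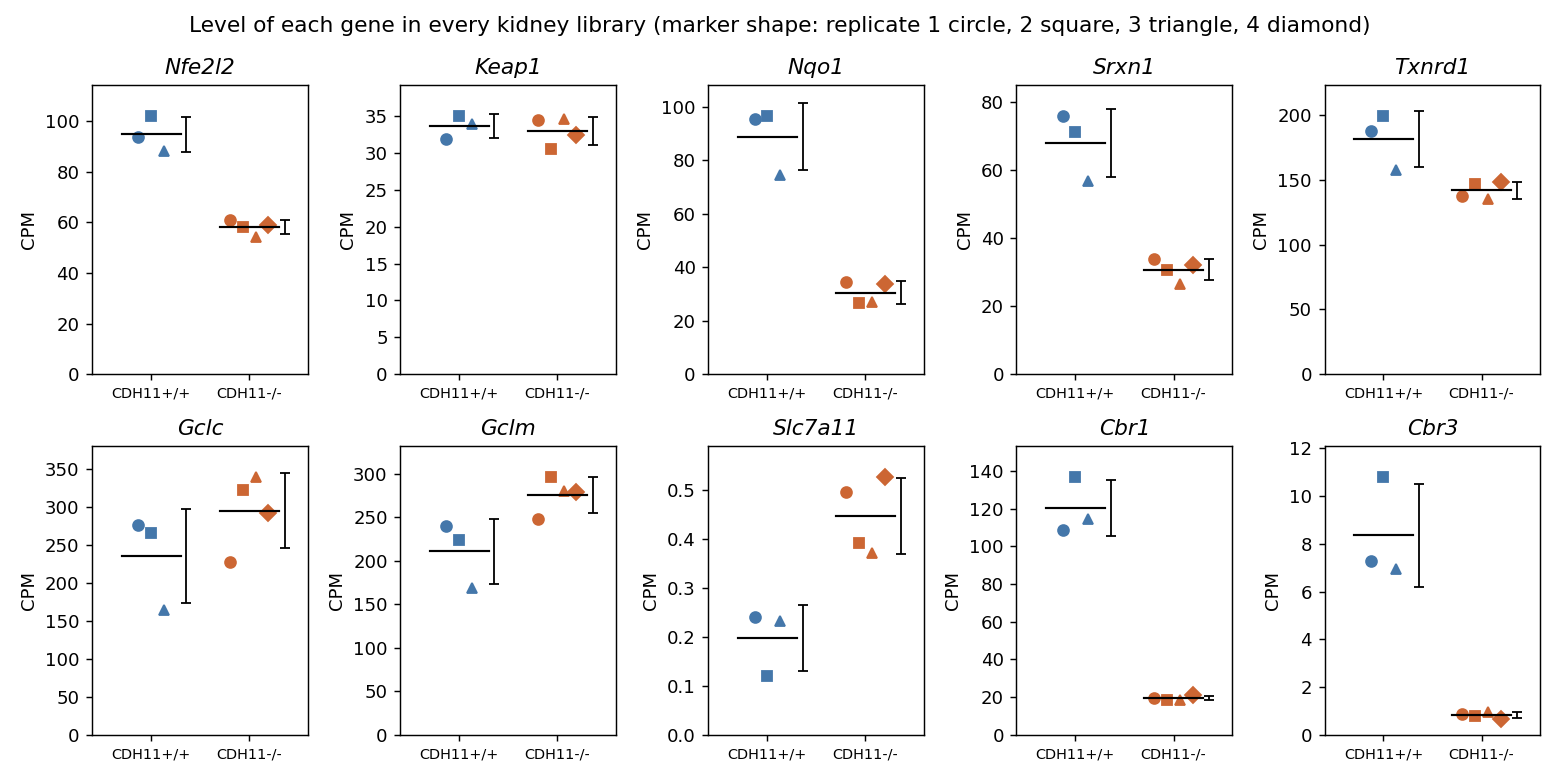
Level of each of the 10 genes in CPM (linear axes from 0), a point for each library, with the group mean as a line and the SD as a bar at its side (n = 3 and n = 4). Nqo1, Srxn1, Nfe2l2, Txnrd1, Cbr1 and Cbr3 lay lower in all 4 knockout-labelled libraries, Gclm and Slc7a11 higher, and Keap1 and Gclc overlapped.

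Nfe2l2 (mm10 chromosome 2, 75675513 to 75704641, minus strand), which encodes NRF2 itself, had 93.9, 102 and 88.2 CPM under the wild-type label and 61.0, 58.3, 54.3 and 59.0 CPM under the knockout label. The lowest wild-type-labelled library lay well above the highest knockout-labelled one. Nfe2l2 fell 1.63-fold (log2 fold change -0.70, SE 0.07, edgeR adjusted p = 0.000179), and the log2 fold change was -0.76 without wild-type-labelled replicate 3.

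Keap1 (chromosome 9, 21229730 to 21239361, minus strand), the inhibitor of NRF2, had 31.9, 35.1 and 34.0 CPM against 34.5, 30.6, 34.6 and 32.5 CPM. The groups overlapped throughout. Its log2 fold change was -0.03 (SE 0.07, edgeR adjusted p = 0.804), with an approximate 95% interval of -0.20 to 0.15. The estimate was also -0.03 with wild-type-labelled replicate 3 left out. Keap1 overlaps the antisense gene Gm16754, which shares 9.02% of the 31-base words of the Keap1 transcripts but held at most 4 counts in any library.

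Nqo1 (chromosome 8, 107388225 to 107403206, minus strand) encodes the quinone reductase that is widely used as a readout of NRF2 activity. It had 95.7, 96.7 and 74.4 CPM under the wild-type label and 34.5, 26.7, 27.0 and 33.8 CPM under the knockout label. The groups did not overlap, and wild-type-labelled replicate 3 was the lowest of its group. Nqo1 fell 2.91-fold (log2 fold change -1.54, SE 0.13, edgeR adjusted p = 0.000109), and 3.17-fold without replicate 3. The gene lies 4.60 Mb from Cdh11 on the same chromosome, so alleles linked to the targeted gene and the genotype label cannot be told apart for it.

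Srxn1, for sulfiredoxin, which repairs overoxidised peroxiredoxins, was next in size among the falls. It had 75.8, 71.2 and 56.8 CPM against 33.6, 30.6, 26.5 and 31.9 CPM, without overlap. Srxn1 fell 2.21-fold (log2 fold change -1.15, SE 0.11, edgeR adjusted p = 0.000204), and 2.41-fold without wild-type-labelled replicate 3.

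Txnrd1, the cytosolic thioredoxin reductase that passes electrons from NADPH to thioredoxin, showed a smaller fall. Its levels were 188, 199 and 157 CPM against 137, 147, 135 and 148 CPM. The gap between the lowest wild-type-labelled library and the highest knockout-labelled one was small, 157 against 148 CPM. Txnrd1 fell 1.28-fold (log2 fold change -0.36, SE 0.09, edgeR adjusted p = 0.0132), and 1.37-fold without wild-type-labelled replicate 3.

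The glutathione genes did not share these falls. Gclc, for the catalytic subunit of glutamate-cysteine ligase, the enzyme that limits glutathione synthesis, had 276, 266 and 165 CPM against 227, 322, 340 and 292 CPM. Wild-type-labelled replicate 3 was the lowest of all 7 libraries, and knockout-labelled replicate 1 lay below the other 2 wild-type-labelled libraries. The log2 fold change was 0.32 (SE 0.20, edgeR adjusted p = 0.268), with an approximate 95% interval of -0.19 to 0.84, and 0.11 without wild-type-labelled replicate 3.

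Gclm, for the modifier subunit of the same ligase, had 240, 224 and 169 CPM against 247, 296, 280 and 279 CPM. The highest wild-type-labelled library was just below the lowest knockout-labelled one. Gclm rose 1.31-fold (log2 fold change 0.39, SE 0.12, edgeR adjusted p = 0.0368), a call that was lost on leaving out any 1 of knockout-labelled replicates 2, 3 and 4 and wild-type-labelled replicates 2 and 3 (highest adjusted p = 0.0928). Without wild-type-labelled replicate 3 its log2 fold change was 0.24 (edgeR adjusted p = 0.0579). The level of Gclc over that of Gclm, per kilobase of annotated exon, was 1.85 ± 0.189 (SD, n = 3) under the wild-type label and 1.78 ± 0.202 (SD, n = 4) in the others, a difference within the spread. Gclm shares 6.82% of its 31-base words with other genes, mostly Gm17494 on the opposite strand.

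Slc7a11, the cystine importer that feeds glutathione synthesis, had few counts in every library. It had 17, 9 and 20 counts under the wild-type label and 42, 28, 32 and 42 counts under the knockout label. These few counts did not overlap between groups. Slc7a11 rose 2.25-fold (log2 fold change 1.17, SE 0.33, edgeR adjusted p = 0.027), a call lost on leaving out any 1 of knockout-labelled replicates 1 and 4 and wild-type-labelled replicates 1 and 2 (highest adjusted p = 0.0792). Without wild-type-labelled replicate 3 the rise was 2.45-fold (log2 fold change 1.29, edgeR adjusted p = 0.0406). Of its 31-base words, 4.27% also occur in transcripts of 3231 other genes, and the single gene sharing the most was Tuba1a (1.59%). The pseudogene Gm37692 and the gene Gm37498 overlap it on the same strand. The part of reads from such genes in these few counts was not tested.

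**Figure D2:**
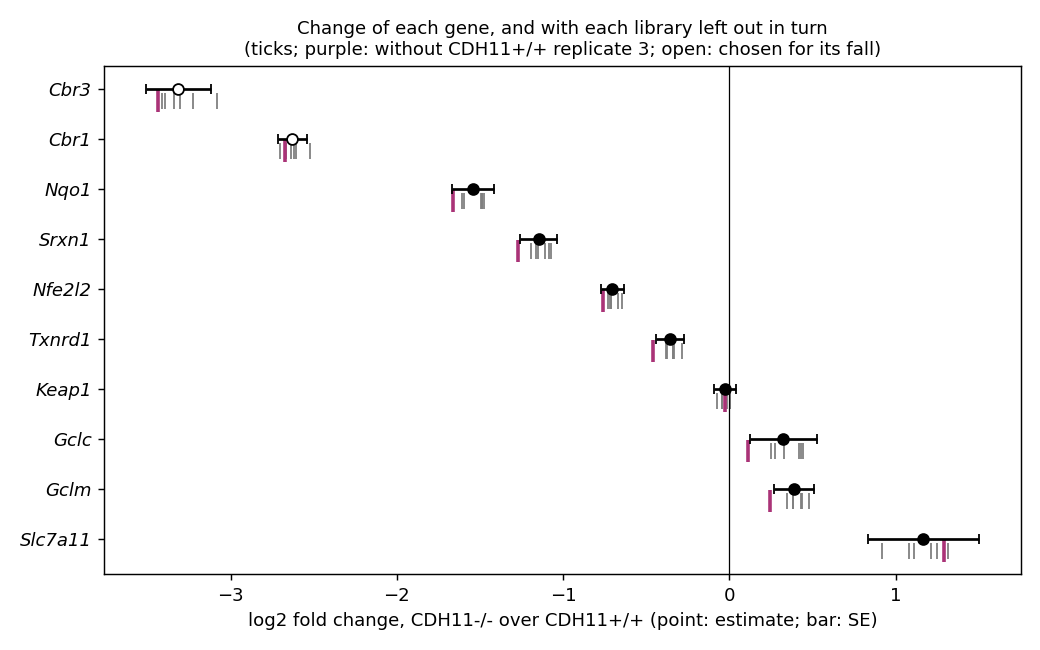
Log2 fold change of each gene, knockout-labelled over wild-type-labelled, with its SE as a bar, and the value with each of the 7 libraries left out as ticks below it. The 10 genes ran from -3.31 for Cbr3 to 1.17 for Slc7a11, and leaving out wild-type-labelled replicate 3 (purple) moved Gclc from 0.32 to 0.11.

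The carbonyl reductase genes Cbr1 and Cbr3 were chosen because they were lower, and the values here only describe by how much. Both encode cytosolic short-chain dehydrogenases that reduce ketones, aldehydes and quinones with NADPH. CBR1 acts on menadione, prostaglandins and anthracycline drugs, and CBR3 is its close relative with a narrower range of substrates. The genes lie side by side on chromosome 16, both on the plus strand, Cbr1 at 93605853 to 93610505 and Cbr3 at 93683215 to 93690990, 72.7 kb apart. Their coding sequences are equally long, 831 bases in 3 exons, and 77.4% identical.

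Cbr1 had 109, 137 and 115 CPM under the wild-type label and 19.7, 18.6, 18.5 and 20.9 CPM under the knockout label. The knockout-labelled values had a mean of 19.4 ± 1.09 CPM (SD, n = 4), and the lowest wild-type-labelled library stood at 109 CPM. Cbr1 was 6.18-fold lower (log2 fold change -2.63, SE 0.09), and 6.36-fold lower without wild-type-labelled replicate 3.

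Cbr3 had 7.29, 10.8 and 6.95 CPM against 0.886, 0.810, 0.972 and 0.677 CPM. These rest on 514, 808 and 601 counts against 75, 58, 84 and 54. Cbr3 was 9.95-fold lower (log2 fold change -3.31, SE 0.19), and 10.8-fold lower without wild-type-labelled replicate 3. For scale, 32 of the 17964 genes tested (0.178%) were at least as much lower as Cbr1, and of 12662 genes averaging 1 CPM or more, with predicted, clone-named and mitochondrial genes left out, 9 were lower by more than Cbr3.

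Per kilobase of annotated exon, the level of Cbr1 over that of Cbr3 was 7.34, 6.22 and 8.11 under the wild-type label and 10.9, 11.3, 9.37 and 15.1 under the knockout label. The ratio did not overlap between the groups, which is the same difference seen in the pair of fold changes. Another gene of this cluster, Gm5678, lies between them and has a coding sequence 90.4% identical to that of Cbr1. It held 0 counts in every library, and how reads were divided between such near-identical genes was not stated in the labels. Cbr1 shares 7.83% of its 31-base words with other genes, and Cbr3 shares 2.31%, all with Cbr1.

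Promoter windows were searched for the letters of the ARE near the start sites. Windows of 300 bases, 250 before to 50 after each RefSeq start (GRCm38.p6), were found for 9 of the 10 genes. Gclc was not matched. Each was searched on both strands for the ARE core TGACNNNGC and for the AP-1 site TGACTCA, whose first 4 letters are also those of the ARE core. The ARE core was in the windows of Nfe2l2, Srxn1, Gclm and, at the second of 3 start sites, Txnrd1, that is 4 of 9 genes, and in 14.0% of the 27025 genes in the table. The AP-1 site was in the window of Srxn1 and in 5.95% of all genes. The windows of 4 genes follow, with matches in capitals: Srxn1 and Gclm as a gene that fell and a gene that rose with the ARE core, and the Cbr pair as the genes with the largest differences. They are, 5′ to 3′ on the strand of the gene, Srxn1 (chr2:152105274-152105573, plus strand) and Gclm (chr3:122245307-122245606, plus strand), and Cbr1 (chr16:93607587-93607886, plus strand) and Cbr3 (chr16:93682969-93683268, plus strand).
Srxn1: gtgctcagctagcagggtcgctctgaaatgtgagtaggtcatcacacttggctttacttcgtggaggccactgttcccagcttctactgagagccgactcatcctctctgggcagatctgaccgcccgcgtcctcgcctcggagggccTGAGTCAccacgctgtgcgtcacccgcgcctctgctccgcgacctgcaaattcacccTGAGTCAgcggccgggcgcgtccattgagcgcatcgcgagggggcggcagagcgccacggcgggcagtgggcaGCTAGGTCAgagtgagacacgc
Gclm: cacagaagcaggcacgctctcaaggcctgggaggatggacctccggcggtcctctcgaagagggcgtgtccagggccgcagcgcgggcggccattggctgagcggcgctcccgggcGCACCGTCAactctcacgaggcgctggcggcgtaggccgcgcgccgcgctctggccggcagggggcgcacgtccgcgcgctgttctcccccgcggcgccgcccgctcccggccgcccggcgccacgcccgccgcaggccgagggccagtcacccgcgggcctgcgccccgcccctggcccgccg
Cbr1: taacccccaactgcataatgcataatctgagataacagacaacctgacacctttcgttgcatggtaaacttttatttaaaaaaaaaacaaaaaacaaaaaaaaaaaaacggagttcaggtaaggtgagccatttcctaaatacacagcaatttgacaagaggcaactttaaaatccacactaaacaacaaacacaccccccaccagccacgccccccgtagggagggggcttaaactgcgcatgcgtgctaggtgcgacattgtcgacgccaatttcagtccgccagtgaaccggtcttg
Cbr3: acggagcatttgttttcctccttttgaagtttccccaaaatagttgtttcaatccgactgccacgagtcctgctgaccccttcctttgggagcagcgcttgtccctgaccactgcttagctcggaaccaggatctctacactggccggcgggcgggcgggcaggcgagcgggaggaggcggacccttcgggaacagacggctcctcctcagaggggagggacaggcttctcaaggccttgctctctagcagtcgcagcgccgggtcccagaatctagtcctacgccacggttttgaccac

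In Srxn1 the AP-1 letters lie 102 and 45 bases before the start and the ARE core letters 28 bases after it, and in Gclm the ARE core letters lie 134 bases before it. The windows of Cbr1, Cbr3, Nqo1, Keap1 and Slc7a11 hold neither motif, which says only that these letters are not within these 300 bases. The RefSeq start used for Cbr1 lies inside the GENCODE gene span given above, downstream of its first base, and the bases before the GENCODE start were not searched. The ARE core was in the windows of Nfe2l2, Srxn1 and Txnrd1, which fell, and of Gclm, which rose. A link of the motif to the direction of change was not tested.

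Levels compared between genes per kilobase of annotated exon put Gclc first in both groups, at 62.5 ± 16.3 CPM per kb (SD, n = 3) and 78.3 ± 13.2 (SD, n = 4). Under the wild-type label Nqo1 (57.2), Cbr1 (47.0), Gclm (33.5), Txnrd1 (25.6), Nfe2l2 (24.95), Srxn1 (24.1), Keap1 (7.17), Cbr3 (6.66) and Slc7a11 (0.0142 CPM per kb) followed. There only the steps from Cbr1 to Gclm, from Srxn1 to Keap1 and from Cbr3 to Slc7a11 exceeded the sum of the SDs of the neighbours. Under the knockout label the order was Gclm (43.8), Txnrd1 (20.01), Nqo1 (19.6), Nfe2l2 (15.3), Srxn1 (10.9), Cbr1 (7.61), Keap1 (7.04), Cbr3 (0.667) and Slc7a11 (0.0320 CPM per kb). Here only Txnrd1 and Nqo1, and Cbr1 and Keap1, were neighbours within the sum of their SDs. Cbr1 went from the third highest level of the 10 to the seventh.

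The authors' deposited normalized values carry a factor for each gene in each library. For Nqo1, Cbr1, Cbr3, Txnrd1 and Gclc this factor stayed within 0.04 log2 units of the library's median factor. For Gclm it departed by 0.32 in wild-type-labelled replicate 3, and for Slc7a11 by up to 0.53. On the deposited normalized values the log2 fold change of Gclm was 0.29 and that of Slc7a11 1.25 (limma adjusted p = 0.0898).

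Beyond the 10 genes, a list of 63 other genes of NRF2 control, of the same pathways and of carbonyl reduction split between the directions. Of these, 18 fell (28.6%, beside 12.9% of all genes) and 20 rose (31.7%, beside 16.8%), and the median log2 fold change was 0.07. Without wild-type-labelled replicate 3, 17 fell and 21 rose.

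Efflux pumps for conjugates fell in 4 of 4, beside 12.9% of all genes. Abcc3 fell from a mean of 17.9 ± 5.09 CPM (SD, n = 3) down to 3.32 ± 1.10 CPM (SD, n = 4), or 5.39-fold (edgeR adjusted p = 0.000942). Abcc4, an exporter of organic anions and cyclic nucleotides, fell 2.79-fold, Abcc1 1.52-fold and Abcc2, of the apical membrane, 1.41-fold, a call lost without wild-type-labelled replicate 2 (edgeR adjusted p = 0.0525).

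Detoxification enzymes fell in 6 of 11 (54.5%, beside 12.9% of all genes) and rose in 2 (18.2%, beside 16.8%). The microsomal glutathione transferase Mgst1 fell from a mean of 90.3 ± 28.1 CPM (SD, n = 3) down to 26.8 ± 1.82 CPM (SD, n = 4), or 3.37-fold (edgeR adjusted p = 0.000434). Gsta4 and Gstm1, cytosolic glutathione transferases, fell 1.99-fold and 1.43-fold, and the aldehyde reductase Akr7a5 rose 1.70-fold. Nqo2, the closest relative of Nqo1, had 22.8 ± 1.53 and 26.1 ± 1.49 CPM and was not called (log2 fold change 0.19, edgeR adjusted p = 0.072). Only 1 rose once wild-type-labelled replicate 1 was left out, and 3 did with total-count scaling or on the normalized values. The number falling was 5 with total-count scaling, with no low-count filter and on the normalized values. It was also 5 on leaving out any library other than knockout-labelled replicate 1. Division of reads within the glutathione transferase families was not given, so their single values are uncertain.

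Glutathione supply and recycling genes rose in 4 of 9 (44.4%, beside 16.8% of all genes) and fell in 2 (22.2%, beside 12.9%). Ggt1, the gamma-glutamyltransferase that breaks down extracellular glutathione at the brush border, rose from a mean of 403 ± 26.6 CPM (SD, n = 3) up to 764 ± 36.8 CPM (SD, n = 4), or 1.90-fold (edgeR adjusted p = 8.76e-05). Gss, the glutathione synthetase, rose 1.77-fold, the glycine transporter Slc6a9 2.19-fold and Ggct, which acts on gamma-glutamyl peptides, 2.22-fold. The 2 that fell were Slc3a2, the heavy chain that partners Slc7a11 (log2 fold change -0.44, edgeR adjusted p = 0.0074), and Chac1, which degrades glutathione and stood under 1 CPM on average in both groups. The number falling was 1 without wild-type-labelled replicate 2. It was 3 with DESeq2 and on leaving out replicate 1 of either label. Proximal tubule marker levels were also higher under the knockout label, and their part in the rises of this list was not tested.

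Thioredoxin system genes rose in 4 of 7 (57.1%, beside 16.8% of all genes) with 0 falling (beside 12.9%), unlike Txnrd1. The reductases Txnrd3 and Txnrd2, the mitochondrial form, rose 1.59-fold and 1.40-fold, while Txnrd1 fell 1.28-fold. The thioredoxin gene Txn1 rose 1.23-fold and the peroxiredoxin gene Prdx1, an NRF2 target, 1.35-fold, from a mean of 299.8 ± 35.1 CPM (SD, n = 3) up to 403 ± 28.7 CPM (SD, n = 4) (edgeR adjusted p = 0.00905). The number rising was 5 with DESeq2, on the normalized values and without wild-type-labelled replicate 3.

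NADPH supply was split, with 2 of 6 higher (33.3%, beside 16.8% of all genes) and 2 lower (33.3%, beside 12.9%). Malic enzyme Me1 rose 2.14-fold, from a mean of 178 ± 26.0 CPM (SD, n = 3) up to 380.2 ± 24.1 CPM (SD, n = 4) (edgeR adjusted p = 0.000174), and transaldolase Taldo1 rose 1.44-fold. The pentose phosphate dehydrogenases Pgd and G6pdx fell 1.23-fold and 1.199-fold. No gene of this group was called lower once knockout-labelled replicate 2 or 3, or else wild-type-labelled replicate 2, was left out, and 1 was once replicate 1 of either label was.

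Among NRF2 partners and regulators 2 of 11 fell (18.2%, beside 12.9% of all genes) and 1 rose (9.09%, beside 16.8%), and 8 were not called. The related factor gene Nfe2l1 fell 1.33-fold, from a mean of 226 ± 11.98 CPM (SD, n = 3) down to 170.0 ± 11.8 CPM (SD, n = 4) (edgeR adjusted p = 0.00337), and the small MAF gene Maff fell 1.70-fold from 3.46 CPM. Dpp3, whose protein competes for KEAP1, rose 1.25-fold. The ligase gene Cul3 (log2 fold change 0.21, edgeR adjusted p = 0.0701) and the autophagy receptor gene Sqstm1 (log2 fold change -0.06, edgeR adjusted p = 0.664) did not pass the test. Only 1 fell once knockout-labelled replicate 2, or else wild-type-labelled replicate 1, was left out, and 2 rose once wild-type-labelled replicate 2 was left out or on the normalized values, and 3 with total-count scaling.

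Heme and iron genes rose in 2 of 5 (40%, beside 16.8% of all genes) with 0 falling (beside 12.9%). The rises were 1.28-fold for the biliverdin reductase Blvra and 1.19-fold for the ferritin heavy chain Fth1. The number rising was 1 with relative log expression scaling or with no low-count filter, 0 without wild-type-labelled replicate 1, and 1 without wild-type-labelled replicate 3 or any single knockout-labelled library, and 1 member fell without knockout-labelled replicate 1. Hmox1, the heme oxygenase that NRF2 and BACH1 control, is named here after its values were seen. It had 49.2, 78.5 and 50.4 CPM against 64.2, 36.2, 27.2 and 30.0 CPM. The groups overlapped through knockout-labelled replicate 1, and the log2 fold change was -0.59 (SE 0.34, edgeR adjusted p = 0.243). Of 3 other NRF2-linked genes 2 fell (66.7%, beside 12.9% of all genes), Osgin1 1.57-fold and Pir 1.84-fold.

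Carbonyl-reducing enzymes other than Cbr1 and Cbr3 mostly rose. Of 7 such genes 5 rose (71.4%, beside 16.8% of all genes) and 0 fell (beside 12.9%), and the median log2 fold change was 0.55. Cbr1 and Cbr3 were set apart for being lower, so their contrast with this list comes partly from that choice. The number rising was 4 on the normalized values or without wild-type-labelled replicate 1. It was 6 without wild-type-labelled replicate 3. The aldehyde reductase Akr1a1 rose from a mean of 639 ± 36.1 CPM (SD, n = 3) up to 914 ± 45.6 CPM (SD, n = 4), or 1.43-fold (edgeR adjusted p = 0.00125). Cbr4, of mitochondria, rose 1.37-fold, Dhrs4, of peroxisomes, 1.47-fold and Hsd11b1, a steroid reductase, 1.98-fold. Cbr2, a mitochondrial carbonyl reductase of lung, had 0.870 ± 0.407 and 1.73 ± 0.958 CPM and was not called (edgeR adjusted p = 0.152).

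**Figure D3:**
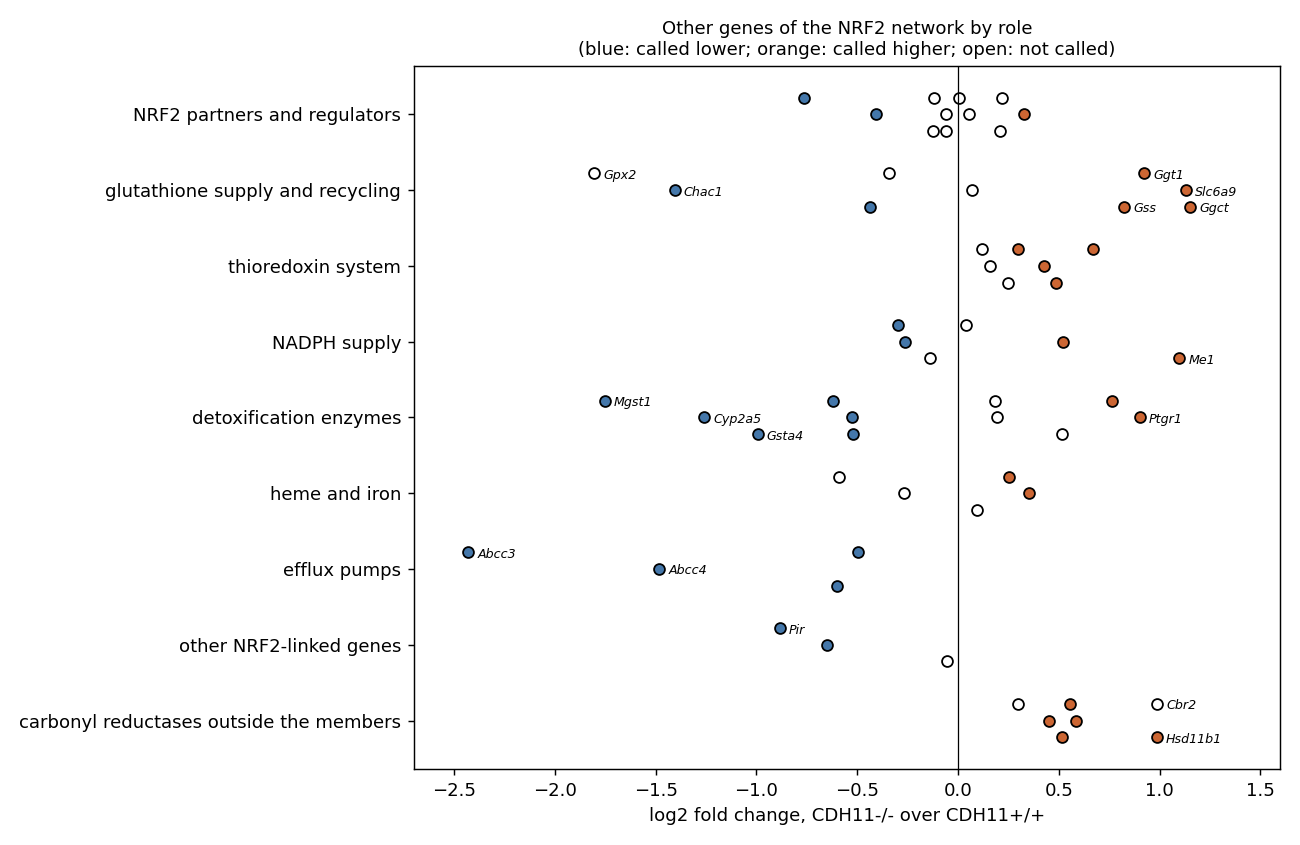
Log2 fold change, knockout-labelled over wild-type-labelled, of the 63 other genes by role, filled where called lower (blue) or higher (orange) and open where not called. Efflux pumps all lay below 0, while thioredoxin system genes and carbonyl reductases outside the pair lay above 0.

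Around the Cbr1 and Cbr3 pair the nearest tested genes differed far less. The pair was chosen for being lower, and 0.178% of tested genes were at least as much lower as Cbr1. Smaller differences nearby therefore follow largely from that choice. Setd4, a methyltransferase gene at -1.79 kb (negative toward lower coordinates), had 1.98 ± 0.277 CPM (SD, n = 3) and 1.52 ± 0.334 CPM (SD, n = 4) and was not called (log2 fold change -0.38, edgeR adjusted p = 0.191). Dop1b, 20.9 kb beyond Cbr3, had 25.6 ± 4.18 CPM (SD, n = 3) and 21.8 ± 0.117 CPM (SD, n = 4) and was not called (log2 fold change -0.23, edgeR adjusted p = 0.101). Morc3, at 141 kb, fell 1.27-fold (edgeR adjusted p = 0.0065). Chaf1b (193 kb), Runx1 (-780 kb) and Clic6 (-1065 kb), with log2 fold changes of 0.54, -0.58 and -0.92, were not called. Levels were low for Chaf1b (means of 0.593 and 0.868 CPM) and Clic6 (0.289 and 0.152 CPM).

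Around Nqo1 the neighbours moved in both directions. Nfat5, the osmotic response factor gene at -8.71 kb, fell 1.17-fold (edgeR adjusted p = 0.0398) and Nob1, at 9.28 kb on the other side, fell 1.32-fold (edgeR adjusted p = 0.00442). Wwp2, a ubiquitin ligase gene, rose 1.22-fold and Cyb5b, for a mitochondrial cytochrome b5, rose 1.24-fold. The pseudogenes Rps18-ps3 and Rps26-ps1 were not called. No neighbour of Nqo1 came near its 2.91-fold difference.

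**Figure D4:**
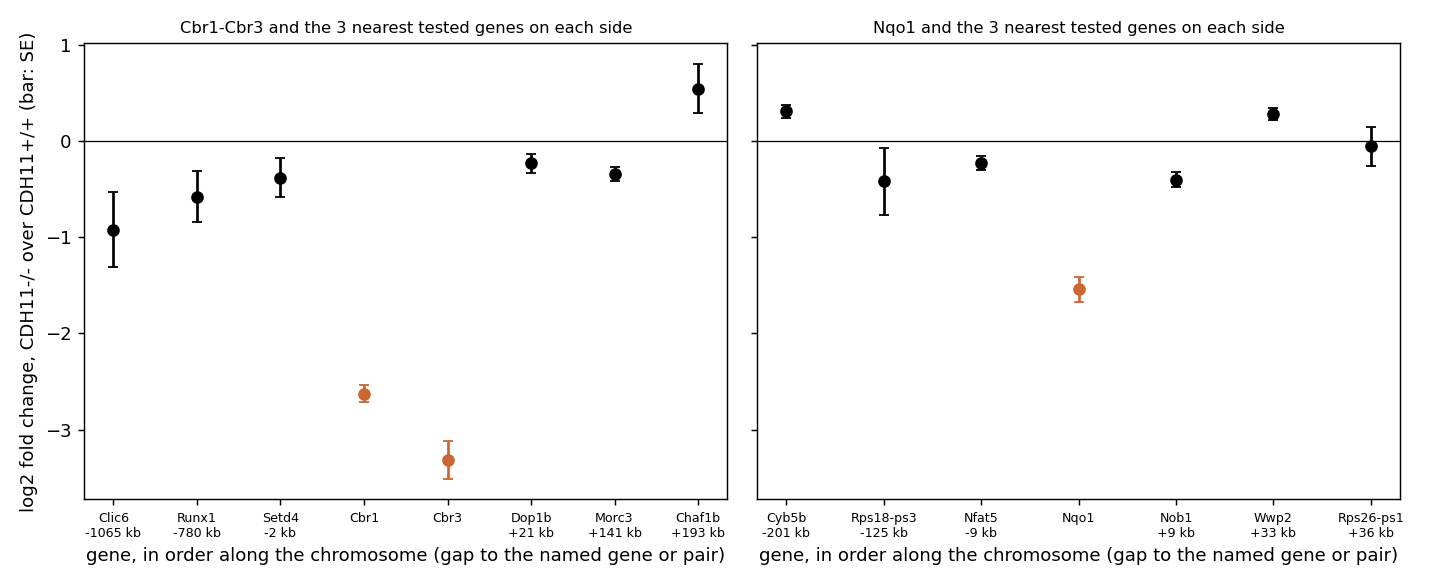
Log2 fold change with its SE for Cbr1 and Cbr3 (left) and Nqo1 (right), in orange, and for the 3 nearest tested genes on each side, in order along the chromosome. Cbr1 (-2.63), Cbr3 (-3.31) and Nqo1 (-1.54) lay below all of their neighbours. Cbr1 and Cbr3 were chosen for being lower, so their part of this follows largely from that choice.

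The genes whose profile over the 7 libraries was nearest to that of Cbr3 were sought among 12661 others averaging 1 CPM or more, with the same kinds of gene left out. Likeness was the root-mean-square difference of log2 CPM centred on each gene's mean, and it is driven mostly by the size of the difference between groups. The nearest were Gsta1 (0.27), Gsta2 (0.33), Cbr1 (0.33), Marc1 (0.36) and Fos (0.37). Gsta1 and Gsta2, near-identical glutathione transferases, were 10.9-fold and 7.43-fold lower under the knockout label. For Nqo1 the nearest were Rdh16f2 (0.15), Dusp8 (0.18), Rbm3 (0.19), Nabp1 (0.21) and the efflux pump gene Abcc4 (0.21), which were 2.33-fold to 2.79-fold lower. These lists are descriptions of 7 libraries that fall into 2 groups.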

How the data were processed

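RNA of whole kidneys from 7 mice was sequenced, and groups came from the genotype in the labels. Replicate numbers follow the order of deposit and pair nothing. Each library is a separate mouse, per the series' design text. The authors deposited an expected count (an estimate of reads) for every gene, in whole numbers. DRAGEN, DESeq2 and the mm10 build are listed per the submitters' processing notes. For annotation release, strand setting and versions, nothing is given in the sources used here, so overlapping and near-identical genes are uncertain. The deposited normalized values (a signal) equal the counts times gene-specific factors whose origin was not given. They served in an alternative and for the factors themselves.

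Genes were filtered with filterByExpr, scaled by TMM and tested with edgeR 4.0.16 (R 4.3.3; quasi-likelihood, robust, 2-sided, no covariates), with Benjamini-Hochberg adjustment over 17964 genes. SE is the log2 fold change over the square root of F, and intervals use a t distribution with 5 degrees of freedom. CPM used TMM-scaled library sizes. The fit was tested on simulated counts with 200 changed genes. Pairs of libraries all differed beyond sampling noise (median chi-square per gene 2.69 to 12.8 over 21 pairs). Symbols, exons and transcripts came from GENCODE release M21 (mm10), promoters from RefSeq (GRCm38.p6). All 42256 identifiers matched a symbol. Shared 31-base words and coding identity were computed on transcripts (Biopython 1.88).

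The genes and lists were chosen with earlier results of these data known. Named were the 10 genes, up to 4 called genes per role by adjusted p, the 3 nearest tested genes on each side, and the 5 nearest profiles, with 0.1 added to CPM and predicted, clone-named and mitochondrial genes left out. Nqo2, Cbr2, Hmox1, Cul3, Sqstm1, Slc3a2 and Chac1 were named in addition, after their values were seen. Alternatives were DESeq2 1.42.0, other scalings and filters, limma 3.58.1 on log2 of the normalized value plus 1, and the omission of each library.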

Additional observations from a re-analysis of the deposited data

How the results depend on the processing

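Of the 8 genes with a test, 6 kept their direction under all 14 alternatives, and Slc7a11 under the 13 that tested it. The exception was Keap1, which was not called under any and had a log2 fold change of 0.004 with knockout-labelled replicate 2 left out and 0.006 with wild-type-labelled replicate 2 left out (range -0.072 to 0.006 on leaving out a library). The 4 falls, of Nfe2l2, Nqo1, Srxn1 and Txnrd1, were called under all 14. For Txnrd1 the call was narrow without wild-type-labelled replicate 2 (edgeR adjusted p = 0.0495). The 2 rises were less stable. The number rising was 1 with a mean of at least 1 CPM, a filter that removes Slc7a11, 1 on the deposited normalized values, and 0 to 1 on leaving out a library, the 0 arising where knockout-labelled replicate 4 was left out, or wild-type-labelled replicate 2. Leaving out a library means fewer samples, and the cause of each lost call was not tested. Cbr1 and Cbr3 ranged from -2.704 to -2.52 and from -3.44 to -3.08 (log2 fold change) on leaving out a library. The median log2 fold change of all genes stayed between -0.03 and -0.000158. The number of genes called over the whole table was 3804 to 5300 on leaving out a library, 4660 on the normalized values and 6005 with DESeq2. No paired analysis was possible because the labels give the groups no shared replicate numbers. Arms of 3 and 4 libraries limit small differences, and 9 to 42 counts limit Slc7a11.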
